A study of Homo sapiens with 6 samples.

Results

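The 10 genes described here form the insulin-like growth factor axis: the ligand IGF2, the receptors IGF1R, INSR and IGF2R, the receptor substrates IRS1 and IRS2, and the binding proteins IGFBP2, IGFBP3, IGFBP4 and IGFBP6. They were taken by gene symbol, 1 row each, from a table of read counts with 60835 unique gene names. All 10 were among the 16744 genes that passed a filter on low counts and were tested. All samples were SW620, a line established from a human colon cancer metastasis, grown in high-glucose DMEM with fetal bovine serum. The 3 libraries called shControl came from cells transduced with a control vector (genotype WT in the labels), and the 3 called shDNM1 from cells described as a stable knockdown of DNM1, the gene of the membrane-scission GTPase dynamin 1. The question posed was which genes differ on DNM1 knockdown, in a study concerned with PI3K/Akt signalling. Every shControl library is marked batch_A and every shDNM1 library batch_B, so batch and vector cannot be told apart. Nothing in the labels says that replicates were separate cultures or clones, and p-values then reflect the spread among libraries alone, which may be technical.

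IGF2 is a secreted growth factor related to insulin. It activates the tyrosine kinase receptor IGF1R and an isoform of the insulin receptor INSR, and the activated receptors phosphorylate IRS1 and IRS2, which recruit PI3-kinase and so feed AKT. IGF2R, also known as the cation-independent mannose 6-phosphate receptor, has no kinase. It carries IGF2 to the lysosome for degradation and sorts lysosomal enzymes. The IGFBPs bind the ligand outside the cell and limit or prolong its access to receptors, and IGFBP6 has a marked preference for IGF2. Gain of IGF2 expression is a well-known feature of a subset of colorectal cancers.

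The libraries held 12844534 to 13537519 counts. DNM1 itself had 129 ± 3.78 CPM (counts per 1000000 reads, scaled between libraries by the TMM method; SD, n = 3) in shControl and 116 ± 16.1 CPM (SD, n = 3) in shDNM1. Its log2 fold change of -0.15 did not pass the test (SE 0.083, edgeR quasi-likelihood adjusted p = 0.189), and the exact two-sided permutation p of 0.1 is the smallest that 3 libraries against 3 can give. Without shDNM1 replicate 1 it passed, at -0.20 (adjusted p = 0.0399), and without shDNM1 replicate 2 the value was -0.037. The shDNM1 libraries held 97.5%, 75.8% and 97.3% of the shControl mean in replicates 1, 2 and 3, so that replicate 2 alone stood well below it. The target mRNA was thus not clearly lower. These counts do not show whether the labels are right or whether DNM1 protein was reduced, and every direction below is between libraries as labelled. Of 10 colon epithelial markers, KRT8, KRT18, EPCAM and VIL1 were abundant, CDX2 rose from 8.06 ± 1.49 to 19.9 ± 1.48 CPM, and CDX1 was at 0 counts in all libraries. CDH17 (1.18 CPM), GPA33 (1.64 CPM), KRT20 (1.01 CPM) and LGALS4 (0.93 CPM in the shControl mean, as for the other 3) were near 0, so that 5 of the 10 were at or near 0. KRT8 and KRT18 also rose, and EPCAM fell. The 5 immune markers summed to at most 1.08 CPM in any library, with CD3E at 0.

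Of the 10 members, 3 rose (IGF2, IGF2R and IGFBP3), 5 fell (INSR, IGF1R, IRS2, IGFBP4 and IGFBP6) and 2 (IRS1 and IGFBP2) did not pass the test at an adjusted p of 0.05. Over all genes tested, 31.9% were called, 15.6% higher and 16.2% lower, so that a called gene was common in these libraries. Of the protein-coding genes tested, the kind to which all members belong, 18.8% were higher and 18.4% lower. The members that were called and changed at least 1.5-fold numbered 4, against 11.7% of all genes, and 2 changed at least 2-fold, against 4.81%. The median log2 fold change was -0.21 over the members and -0.01 over all genes tested, and the median absolute change was 0.34 and 0.24. The values of the labelled sets did not overlap for 9 of the 10 members, which was so for 44.3% of all genes tested. With the deposited TPM on the log2(TPM + 1) scale, the members gave the same counts of 3 higher and 5 lower. Over all genes, however, that scale changed the split of calls from 2617 higher and 2720 lower to 1801 higher and 2846 lower. Without shControl replicate 3, only 3 members were lower, since IGF1R and IRS2 then missed the threshold. Over all genes, 2087 rather than 2720 were then lower.

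**Figure D1:**
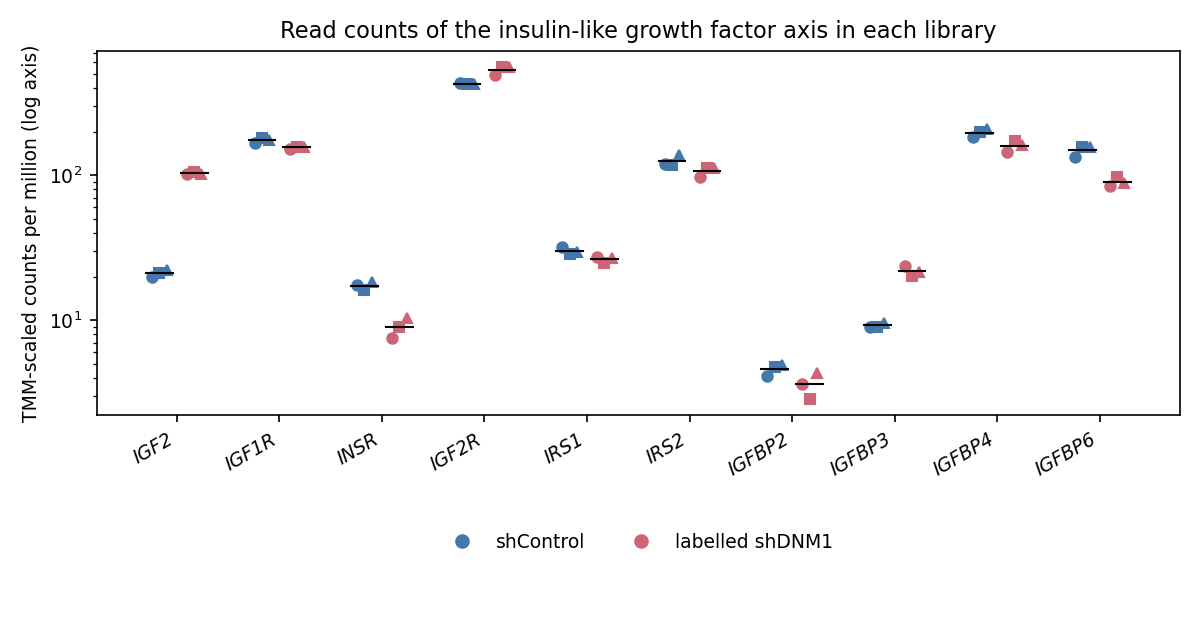
Each point is the TMM-scaled CPM (log axis) of a library, with circles, squares and triangles for replicates 1, 2 and 3, and black lines mark the means of 3 libraries. IGF2 and IGFBP3 are higher in every library labelled shDNM1 than in every shControl library, INSR and IGFBP6 are lower in every one, and IGFBP2 overlaps.

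IGF2 (ENSG00000167244, GRCh38 chromosome 11, 2129112 to 2158391, minus strand, protein-coding) changed most among the members. Its level was 19.8, 21.0 and 22.4 CPM in the shControl libraries and 102, 105 and 102 CPM in the shDNM1 libraries. Each shDNM1 library was thus far above each shControl library, and the 3 shDNM1 values lay close together. In bulk RNA, a change in the share of cells that express a gene and a change in RNA per cell cannot be told apart. The coefficient of variation over the shDNM1 libraries was 1.24%, below the 2.75% that counting error alone gives at this depth. IGF2 was 4.90-fold higher, at a log2 fold change of 2.29 (SE 0.077, 95% interval 2.13 to 2.45, edgeR adjusted p = 9.95e-13), which ranked 61st by absolute change among all genes tested. It kept its call in all 18 alternative analyses, where the log2 fold change ran from 2.14 to 2.33.

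The rise began from a modest level. On the TPM scale, which divides by transcript length, IGF2 went from 11.5 ± 0.64 to 54.1 ± 1.03 (SD, n = 3), and 41.7% of the genes tested had a lower shControl mean. The other ligands of these receptors were almost absent. IGF1 had 0 counts in every library but shDNM1 replicate 2, with 1, and INS had at most 1 count in any library. The 4 annotated genes that overlap IGF2, among them the readthrough gene INS-IGF2 (0 counts) and the antisense IGF2-AS (2 counts over the shControl and 9 over the shDNM1 libraries), together held 0.25% as many reads as IGF2. GENCODE release 29 lists 9 coding IGF2 transcripts that begin at 8 positions, and counts per gene do not separate them. IGF2 is also made by stromal cells and hepatocytes, and their markers were examined beside it. COL3A1 was at 0 in all libraries, and COL1A2, DCN and PDGFRA were near 0. LUM (23.1 to 32.1 CPM) and PDGFRB (1.85 to 4.93 CPM) were detected and also rose, and COL1A1 did not pass the test. The summed level of the 7 fibroblast markers was 31.3 to 38.7 CPM in shControl and 42.6 to 57.2 CPM in shDNM1, and that of 4 hepatocyte markers, nearly all of it SERPINA1 with TTR at 0, was 28.1 to 33.7 and 36.0 to 42.2 CPM. The 4 endothelial markers, with KDR at 0 and CDH5 near 0, summed to 16.9 to 20.2 and 17.9 to 22.8 CPM. SERPINA1 was 1.29-fold higher (adjusted p = 0.00639). VWF was 1.41-fold higher with overlapping values (adjusted p = 0.049), and PECAM1 did not pass the test. The part of these cell types' markers in the IGF2 result was not tested.

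**Figure D2:**
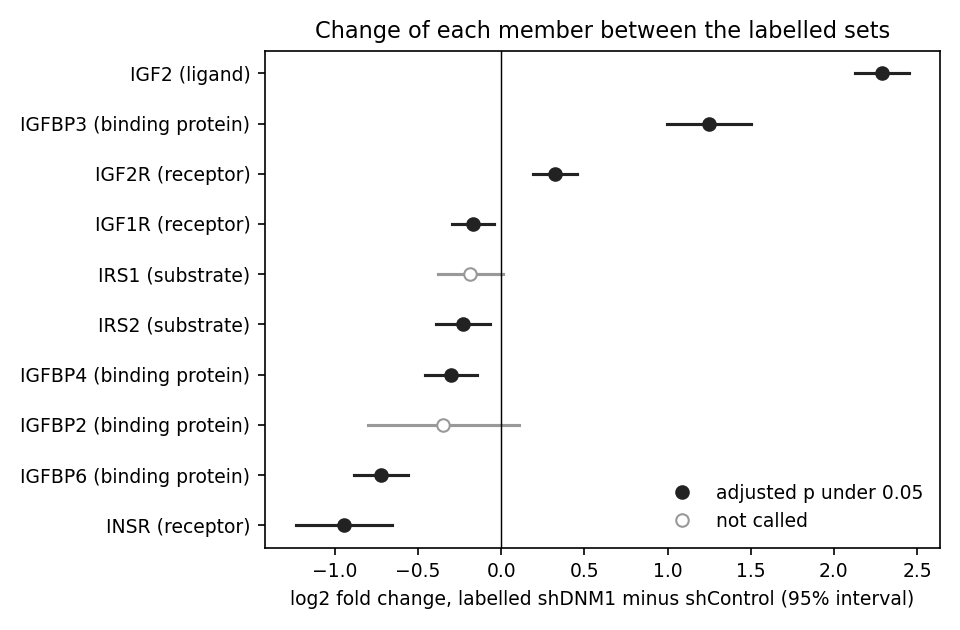
Points are log2 fold changes between the labelled sets with 95% intervals, filled where the adjusted p is under 0.05. IGF2 lies at 2.29 and IGFBP3 at 1.25, and INSR at -0.95 is the lowest.

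The 3 receptors did not move together. INSR (ENSG00000171105, chromosome 19, 7112255 to 7294414, minus strand), the receptor of insulin and of IGF2, fell most. It had 17.4, 16.3 and 18.3 CPM in shControl and 7.53, 9.01 and 10.4 CPM in shDNM1. All shDNM1 values were below all shControl values, although they spread more among themselves. INSR was 1.93-fold lower (log2 fold change -0.95, SE 0.14, 95% interval -1.24 to -0.66, adjusted p = 3.89e-05). The libraries labelled shDNM1 held only 97 to 137 reads of it each, so that counting error alone gives a coefficient of variation of 9.30%, against 16.0% observed.

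IGF1R (ENSG00000140443, chromosome 15, 98648539 to 98964530, plus strand), the main signalling receptor of the axis, stood far above INSR per length (43.5 ± 1.17 against 5.59 ± 0.37 TPM in shControl; SD, n = 3). It had 167, 181 and 176 CPM in shControl and 152, 157 and 157 CPM in shDNM1. The sets did not overlap, but the gap between the highest shDNM1 and the lowest shControl library was smaller than the range of the shControl libraries. The log2 fold change was -0.17 (SE 0.061, adjusted p = 0.0419). The call was lost in 10 of 18 alternatives. Dropping any shControl library ended it (adjusted p = 0.0611, 0.158 and 0.121 for replicates 1, 2 and 3), as did dropping shDNM1 replicate 2 (0.0534) or 3 (0.0854).

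IGF2R (ENSG00000197081, chromosome 6, 159969082 to 160113507, plus strand), the clearance receptor, rose. Its level was 430, 423 and 425 CPM in shControl and 490, 555 and 554 CPM in shDNM1. The shControl libraries agreed within 0.889% (coefficient of variation), and shDNM1 replicate 1 was the lowest of its set yet still above them. The increase of IGF2R was 1.25-fold, a log2 fold change of 0.32 (SE 0.063, adjusted p = 0.000642), and kept its call in all 18 alternatives. The smaller cation-dependent mannose 6-phosphate receptor gene M6PR, which sorts lysosomal enzymes but does not bind IGF2, was 1.46-fold higher (adjusted p = 1.49e-05). It is named here after its value was seen.

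The promoter windows of 9 members were found in the RefSeq table (GRCh38.p14), and the 250 bases before the annotated start were searched on both strands for CACGTG (the E-box bound by MYC and by the lysosomal regulators of the MiT/TFE family), GGGCGG (the GC box), TATAAA (the TATA box) and TGTTTAC (a forkhead motif, the kind bound by FOXO factors). They are shown for the matched members that kept their call in all 18 alternatives and whose window lies wholly before the gene in GENCODE as well, INSR, IGF2R and IGFBP4. Capitals mark every motif match, and sequences run 5′ to 3′ on the gene's strand.
INSR, chr19:7294415-7294664, minus strand: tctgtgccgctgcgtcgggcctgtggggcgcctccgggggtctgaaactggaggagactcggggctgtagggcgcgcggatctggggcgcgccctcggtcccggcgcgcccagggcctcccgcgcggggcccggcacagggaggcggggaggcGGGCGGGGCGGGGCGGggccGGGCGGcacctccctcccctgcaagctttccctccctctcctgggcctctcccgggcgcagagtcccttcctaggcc
IGF2R, chr6:159968832-159969081, plus strand: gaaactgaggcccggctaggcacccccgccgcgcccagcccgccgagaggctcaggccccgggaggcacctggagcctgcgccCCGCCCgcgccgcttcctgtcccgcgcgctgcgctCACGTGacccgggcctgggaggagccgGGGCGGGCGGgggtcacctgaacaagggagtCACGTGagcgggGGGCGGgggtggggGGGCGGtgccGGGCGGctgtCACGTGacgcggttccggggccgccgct
IGFBP4, chr17:40443200-40443449, plus strand: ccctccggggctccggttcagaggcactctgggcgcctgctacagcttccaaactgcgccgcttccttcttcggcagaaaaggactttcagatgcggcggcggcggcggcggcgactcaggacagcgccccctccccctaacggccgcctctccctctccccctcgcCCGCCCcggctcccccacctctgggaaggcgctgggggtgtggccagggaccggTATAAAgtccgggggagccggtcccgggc
IGF2R held CACGTG at 3 places, beginning 132, 74 and 28 bases before the start. Of all 35116 promoter windows of that length, 6.34% held CACGTG and 0.0797% held it 3 times or more, and none of the windows of the other 8 matched members held it. The cut of 3 was taken from the IGF2R window itself, so that share is a description without a test. The GC box was found in at least 1 window of each of the 9 matched members, with 6 matches in IGF2R, 4 in INSR and 1 in IGFBP4 (some of those in IGF2R and INSR overlap each other), and in 42.6% of all windows. It was present 3 times or more in 13.9% of all windows. TATAAA was found only in IGFBP4 among the matched members, 29 bases before the start, against 10.7% of all windows. The only forkhead match was in IGFBP6, whose window is not shown, 186 bases before the start, against 2.98% of all windows. All windows shown were rich in GC, at 78.4% in INSR, 79.2% in IGF2R and 71.6% in IGFBP4, where the median of all windows was 58.0%. These matches describe the letters only, since no binding was measured.

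The receptor substrates differed little between the sets. IRS2 (ENSG00000185950, chromosome 13, 109752695 to 109786583, minus strand) is the docking protein prominent in liver and beta-cell insulin signalling. It had 119, 117 and 139 CPM in shControl and 97.1, 111 and 112 CPM in shDNM1. All shDNM1 libraries were lower, with shControl replicate 3 standing above the rest and shDNM1 replicate 1 below. The log2 fold change was -0.23 (SE 0.077, adjusted p = 0.0307). It missed the threshold without shControl replicate 3 (adjusted p = 0.199) and without shDNM1 replicate 1 (adjusted p = 0.0729), with log2 fold changes of -0.15 and -0.16, and with DESeq2 (adjusted p = 0.0618).

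IRS1 (ENSG00000169047, chromosome 2, 226731312 to 226799820, minus strand), the first of these docking proteins to be described, had 32.1, 28.4 and 29.4 CPM in shControl and 27.5, 24.6 and 27.0 CPM in shDNM1. Its values did not overlap either, but the difference did not pass the test (log2 fold change -0.19, 95% interval -0.38 to 0.01, adjusted p = 0.139). A decrease as large as that of IRS2 lies within this interval. Per length, IRS2 exceeded IRS1 in every library, and the ratio of IRS1 to IRS2 TPM was 0.202 ± 0.024 over the shControl libraries and 0.208 ± 0.026 over the others (SD, n = 3).

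Among the binding proteins, IGFBP3 rose while IGFBP6 and IGFBP4 fell. IGFBP3 (ENSG00000146674, chromosome 7, 45912245 to 45921874, minus strand) is the main IGF carrier of serum and is secreted by many cell types. It stood at 9.05, 8.91 and 9.64 CPM in shControl and at 23.7, 20.2 and 21.6 CPM in shDNM1. The sets were well separated, and the gene was 2.37-fold higher, a log2 fold change of 1.25 (SE 0.12, adjusted p = 3.87e-07).

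IGFBP6 (ENSG00000167779, chromosome 12, 53097436 to 53102345, plus strand), the binding protein with a preference for IGF2, moved the other way. It had 133, 157 and 156 CPM in shControl and 83.7, 97.7 and 88.8 CPM in shDNM1. Every shDNM1 library was below every shControl library, and the gene was 1.65-fold lower (log2 fold change -0.72, SE 0.077, adjusted p = 1.35e-06). IGFBP4 (ENSG00000141753, chromosome 17, 40443450 to 40457725, plus strand), an inhibitory binding protein that is cleaved by the protease PAPPA, had 182, 199 and 209 CPM in shControl and 144, 172 and 162 CPM in shDNM1. The sets came close but did not overlap, and IGFBP4 was 1.23-fold lower (log2 fold change -0.30, SE 0.073, adjusted p = 0.00392). IGFBP3, IGFBP4 and IGFBP6 kept their calls in all 18 alternatives.

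IGFBP2 (ENSG00000115457, chromosome 2, 216632828 to 216664436, plus strand), a binding protein often raised in tumours, was the least abundant member. It had 4.14, 4.79 and 4.93 CPM in shControl and 3.65, 2.87 and 4.33 CPM in shDNM1. The sets overlapped and the difference did not pass the test (log2 fold change -0.35, 95% interval -0.80 to 0.10, adjusted p = 0.236). At 36 to 65 reads a library, a decrease of 1.5-fold lies within this interval. The other IGFBPs were near 0: IGFBP5 had 0 counts in all libraries, IGFBP7 at most 2 and IGFBP1 at most 9, and none of the 3 passed the filter on low counts.

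Per length, IGFBP6 and IGFBP4 were the most abundant members. In shControl, IGFBP6 (385 ± 30.1 TPM) and IGFBP4 (272 ± 16.2 TPM) stood above IGF2R (91.2 ± 2.04), IRS2 (46.7 ± 4.44) and IGF1R (43.5 ± 1.17), then IGF2 (11.5 ± 0.64), IGFBP3 (10.7 ± 0.48), IRS1 (9.36 ± 0.72), INSR (5.59 ± 0.37) and IGFBP2 (3.19 ± 0.26; SD, n = 3 for each). IRS2 and IGF1R, and IGF2 and IGFBP3, were neighbours whose shControl values overlapped. The highest IRS1 value, 10.16 TPM, lay just below the lowest of IGFBP3, 10.19 TPM. In shDNM1, IGF2 (54.1 ± 1.03) stood above IRS2 (38.2 ± 2.42) and IGF1R (37.2 ± 0.97) in every library.

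The ratios between members were then described, without a test because the members are a chosen set. The ratio of IGF2 to IGF2R transcripts was 0.117, 0.127 and 0.134 in shControl and 0.532, 0.481 and 0.471 in shDNM1. Ligand thus stayed below its clearance receptor in every library, and the mean ratio was 3.92-fold higher in shDNM1. The ratio of INSR to IGF1R was 0.135, 0.116 and 0.135 in shControl and 0.0641, 0.0744 and 0.0855 in shDNM1. IGF1R was the more abundant receptor throughout, and the mean ratio was 1.72-fold lower in shDNM1. The summed TPM of the 4 binding proteins went from 670 ± 45.5 to 462 ± 21.0 (SD, n = 3). Within this sum the shControl share of IGFBP6, 57.4% ± 0.96, compared with a shDNM1 share of 48.4% ± 0.70, that of IGFBP4 40.6% ± 0.85 and 45.8% ± 0.98, and that of IGFBP3 1.59% ± 0.12 and 5.29% ± 0.81 (SD, n = 3). IGFBP4 thus had a larger share in shDNM1 although its own level was lower.

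**Figure D3:**
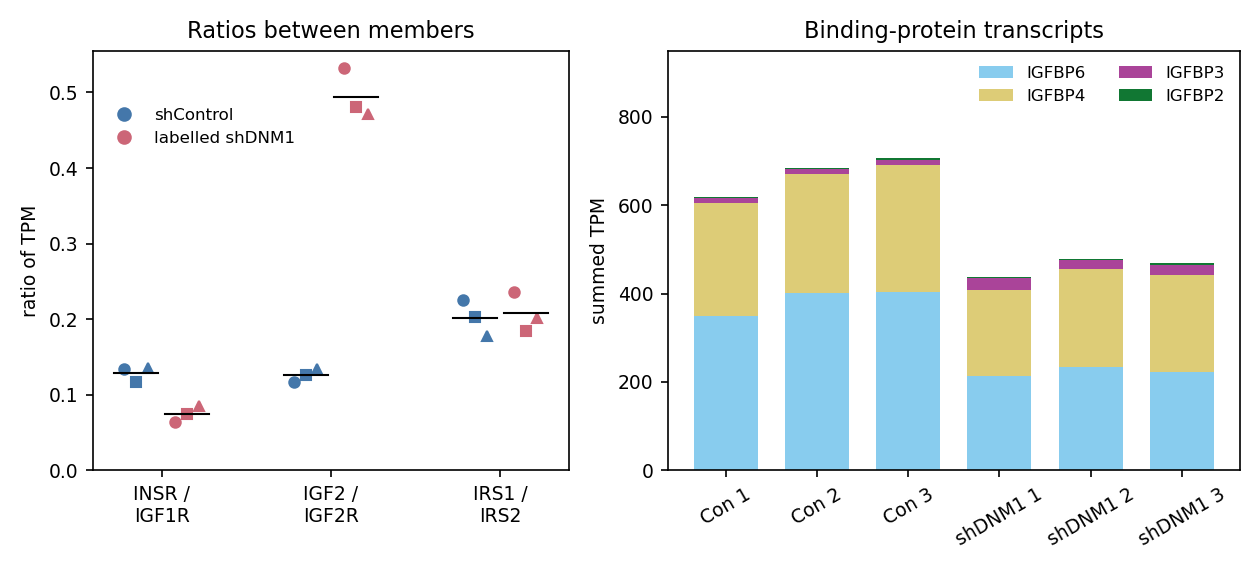
The left panel shows ratios of TPM in each library (circles, squares and triangles for replicates 1, 2 and 3) with means of 3 libraries as lines. IGF2 to IGF2R is at 0.117 to 0.134 in shControl and at 0.471 to 0.532 in shDNM1, while IRS1 to IRS2 overlaps. The right panel stacks the TPM of the 4 binding proteins in each library (Con is shControl), which sums to 619 to 706 in shControl and 439 to 479 in shDNM1.

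The other genes of the pathway showed no common direction. Of 66 listed genes, 9 of them neighbours of IGF2 that are described last, 47 were tested, 13 rose, 13 fell and 21 did not pass, which is 26 called of 47 beside 31.9% of all genes. Their median log2 fold change was 0.02, against -0.01 over all genes tested. Without shControl replicate 2 or 3, 8 of them were lower. Over all genes, 2237 and 2087 were then lower, against 2720 with every library. Among the adaptors between receptor and RAS or PI3-kinase, 1 of 10 tested rose and 2 fell. The adaptor gene CRK was 1.42-fold higher (adjusted p = 6.06e-06). The RAS exchange factor SOS1 was 1.29-fold lower (adjusted p = 0.00496) and the insulin receptor adaptor SH2B1 1.28-fold lower (adjusted p = 0.00207). Of 6 tested genes of the PI3-kinase and AKT step, 2 fell (PIK3R1 and PIK3CB) and none rose. For both lists, the shares over all genes tested were 15.6% higher and 16.2% lower. The genes named from these lists were picked after their values were seen, and all of them changed less than 1.5-fold.

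Of 12 tested genes that restrain the receptors or their signal, 4 rose and 3 fell. Among all genes tested, 15.6% were called higher and 16.2% lower. CBL (1.37-fold, adjusted p = 9.66e-06), TRIB3 (1.31-fold, adjusted p = 0.000487) and GIGYF2 (1.14-fold, adjusted p = 0.0271) rose. GRB10 was 1.41-fold lower (adjusted p = 0.00547). These genes are named after their values were seen, and none of them reached 1.5-fold. GRB14, an inhibitor that docks on the insulin receptor, was 1.91-fold lower (adjusted p = 0.0332), ENPP1, a membrane ectoenzyme known to inhibit the insulin receptor, 2.87-fold lower (adjusted p = 0.0395), and SOCS2, an inducible brake on cytokine signalling, 2.37-fold higher (adjusted p = 0.0368). All 3 are low genes, at 2 to 40 reads a library, and none was called with DESeq2 (adjusted p = 0.0942, 0.0971 and 0.132 for GRB14, ENPP1 and SOCS2). The GRB14 call was lost on dropping shControl replicate 2 (adjusted p = 0.0933) or 3 (0.116), or shDNM1 replicate 2 (0.123) or 3 (0.0504). ENPP1, whose sets overlapped, lost its call on dropping shControl replicate 2 (adjusted p = 0.149) or 3 (0.154), or shDNM1 replicate 1 (0.0763) or 3 (0.175). SOCS2 lost its call on dropping shControl replicate 1 (adjusted p = 0.0582), 2 (0.103) or 3 (0.154), or shDNM1 replicate 2 (0.13) or 3 (0.119).

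Of 5 tested genes that process the ligand or free it from binding proteins, 2 rose and 1 fell, beside 15.6% and 16.2% of all genes tested. The lysosomal protease gene CTSD was 2.11-fold higher (adjusted p = 1.90e-08), with 38.8, 44.0 and 43.8 CPM in shControl and 83.5, 98.0 and 85.9 CPM in shDNM1. PCSK4, a convertase that cleaves the IGF2 precursor, was 1.79-fold lower (adjusted p = 0.0421), a call lost on dropping shControl replicate 1 (adjusted p = 0.222), 2 (0.0544) or 3 (0.0567), or shDNM1 replicate 1 (0.0766) or 2 (0.129), and with DESeq2 (0.124). IGFBPL1, a relative of the binding proteins, was 2.53-fold lower at 5 to 22 reads a library (adjusted p = 0.0226), and that call was lost on dropping shControl replicate 1 (adjusted p = 0.0601) or 3 (0.116), or shDNM1 replicate 2 (0.0783) or 3 (0.0975), and with DESeq2 (0.0968). PAPPA and PAPPA2, proteases that cleave IGFBPs, did not pass the filter on low counts, with at most 6 reads in a library.

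The regulators of IGF2 transcription and mRNA changed in both directions, with 2 of 7 tested higher and 3 lower. The shares over all genes tested were 15.6% and 16.2%. HMGA2, an oncofetal chromatin protein that has been placed upstream of IGF2 together with PLAG1, had 38.2, 31.6 and 38.1 CPM in shControl and 95.1, 102 and 94.2 CPM in shDNM1. All shDNM1 libraries were well above all shControl libraries, and the increase was 2.70-fold (log2 fold change 1.43, adjusted p = 7.34e-10). PLAG1 did not pass the test (log2 fold change 0.23, adjusted p = 0.126). Of the genes for IGF2 mRNA-binding proteins, IGF2BP1 rose (log2 fold change 0.23, adjusted p = 0.0102), IGF2BP2 fell (-0.34, adjusted p = 0.00049) and IGF2BP3 did not pass (-0.05, adjusted p = 0.632). CTCF, whose protein insulates IGF2 from shared enhancers on the maternal chromosome, was at -0.30 (adjusted p = 0.00167). PLAG1, CTCF and the IGF2BP genes are named after their values were seen.

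**Figure D4:**
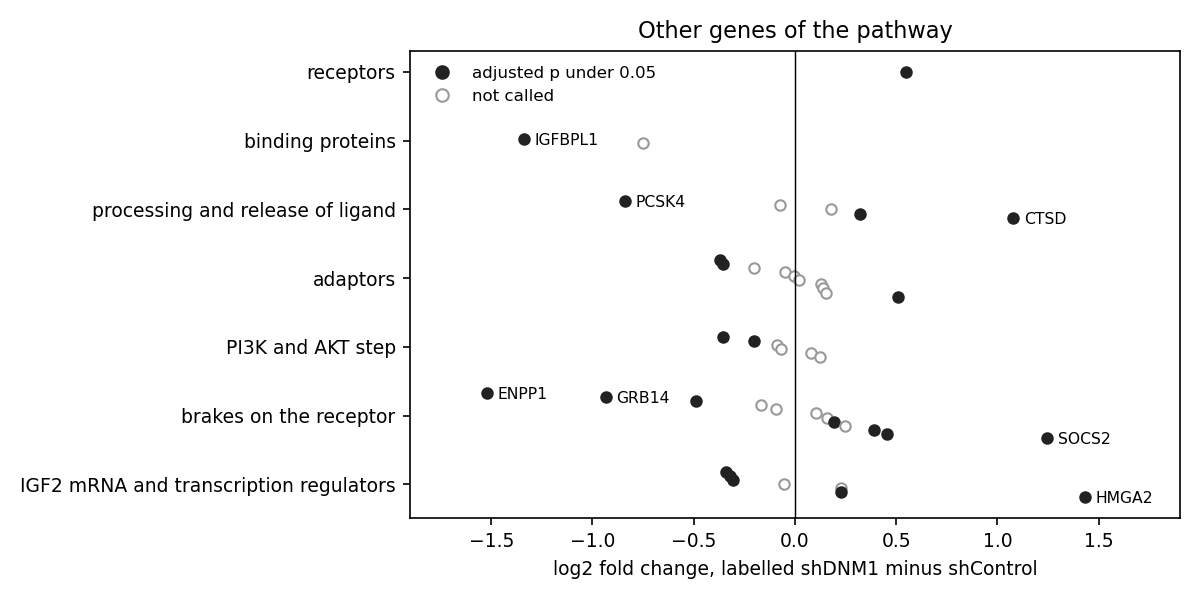
Each point is the log2 fold change of a tested gene of the pathway lists other than the chromosome 11 neighbours, filled where the adjusted p is under 0.05, with names for called genes past 1.5-fold. Filled points lie on both sides of 0, with HMGA2 at 1.43 and ENPP1 at -1.52 at the ends.

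The genes around IGF2 at the end of the short arm of chromosome 11 were mostly higher as well. Of 11 other protein-coding genes tested within 300 kb of IGF2, 8 rose, 1 fell and 2 did not pass. Of all protein-coding genes tested, 18.8% were called higher and 18.4% lower. TH, the tyrosine hydroxylase gene that lies 5.54 kb from IGF2, had 12.0, 11.3 and 8.63 CPM in shControl and 35.6, 40.0 and 43.3 CPM in shDNM1, and was 3.71-fold higher (adjusted p = 3.10e-09). LSP1, a leukocyte-associated actin-binding protein gene 237 kb away, was 5.69-fold higher (adjusted p = 1.03e-08) and PRR33 3.89-fold higher (adjusted p = 1.41e-05). C11orf21 was 2.19-fold, TSPAN32 1.58-fold, SYT8 1.55-fold, ASCL2 1.35-fold and CD81 1.22-fold higher, of which SYT8 missed the threshold on the log2(TPM + 1) scale (limma adjusted p = 0.0522). ASCL2, which encodes a transcription factor of intestinal stem cells, had non-overlapping values, at 93.4, 96.8 and 91.0 CPM in shControl and 121, 132 and 127 CPM in shDNM1. The mitochondrial ribosomal gene MRPL23 was 1.71-fold lower (adjusted p = 0.00037). TSSC4 (log2 fold change 0.08, adjusted p = 0.491) and TNNI2 (0.67, adjusted p = 0.136) did not pass, TNNI2 passing only without shDNM1 replicate 2 (0.97, adjusted p = 0.021). LSP1 with PRR33, and TSPAN32 with C11orf21, overlap on opposite strands, as does MRPL23 with an antisense gene, and it is not known whether counting used strand. These counts are therefore uncertain. H19, the imprinted RNA gene coupled to IGF2, had at most 2 reads in a library.

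Beyond 1000 kb the excess of higher calls was smaller. Within 1000 kb of IGF2, 16 of 23 protein-coding genes tested rose (69.6%) and 2 fell. This window includes the one of 300 kb, and the median log2 fold change was 0.66 in both. Between 1000 and 5000 kb, 19 of 75 rose (25.3%) and 5 fell, with a median of 0.11. On the rest of chromosome 11, 123 of 643 rose (19.1%) and 108 fell, beside the 18.8% higher and 18.4% lower among all 12503 protein-coding genes tested. This window was examined with earlier results for IGF2, LSP1 and TH known, and the counts are given as a description without a test. CTSD, described above, lies within 1000 kb, 365 kb from IGF2. So do CDKN1C and PHLDA2, imprinted genes that restrain growth, which were 1.85-fold and 2.13-fold higher. Larger rises in this window were those of MUC5B (3.31-fold), MUC5AC (3.11-fold) and DUSP8 (2.27-fold), MUC5B and MUC5AC at only 11 to 68 reads a library. OSBPL5, the other gene that fell, was 1.75-fold lower. All of these but CTSD are named after their values were seen.

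**Figure D5:**
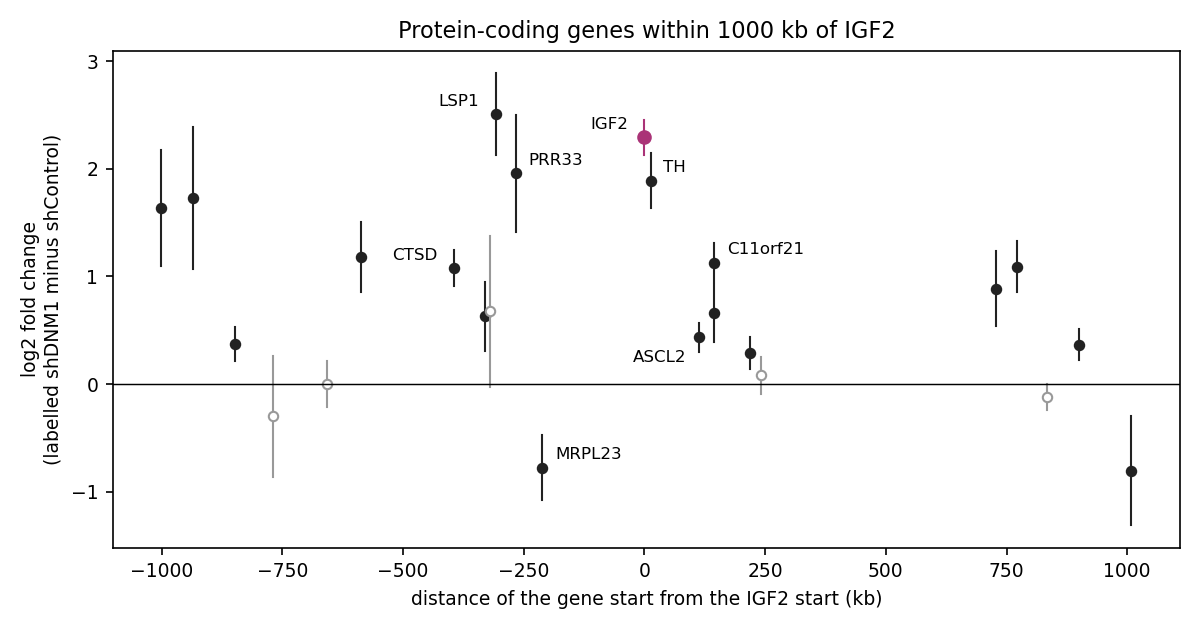
Log2 fold changes with 95% intervals of protein-coding genes within 1000 kb of IGF2 are plotted against the distance in kb between gene starts, with negative values towards the end of the chromosome and open points for genes that did not pass. The limit of 1000 kb applies to the gap between genes, so a start can lie slightly beyond it. Of the 23 neighbours 16 are called higher and 2 lower, MRPL23 among the latter.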

How the data were processed

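mRNA-seq libraries made from total RNA of 6 SW620 samples were analysed from 2 deposited tables. One gives raw read counts for each gene as the authors deposited them, on GRCh38 per the submitters' processing notes. The other gives the authors' deposited TPM, which was handled as a score. Gene names repeated on 2328 of 62710 lines, 453 names with identical values, inflate its column sums as deposited. Repeats were collapsed in both, after which the TPM of each library summed to 1000000. Aligner, counter and strand setting: not given in the sources used here.

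Genes were filtered with filterByExpr, scaled by TMM and tested with edgeR 4.0.16 in R 4.3.3 (quasi-likelihood, two-sided), with Benjamini-Hochberg adjustment over 16744 genes. Adjusted p-values are from this test unless another tool is named. The procedure was tested on simulated counts. Gene models were GENCODE release 29 and promoters RefSeq.

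The members, lists and tests were chosen with earlier results of these data known. Named were DNM1, the members, called pathway genes past 1.5-fold, protein-coding neighbours within 300 kb and the 3 genes most like IGF2. The 18 alternatives were 3 other scalings, 2 other filters, DESeq2 1.42.0, limma-voom (limma 3.58.1), a robust fit, limma on log2(TPM + 1) and log2(TPM + 0.1), a stricter threshold (0.01), a replicate block, and each library left out. Library pairs differed by a chi-square per gene of at least 2.10, and none was treated as a duplicate.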

Additional observations from a re-analysis of the deposited data

How the results depend on the processing

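Across the 18 alternatives, IGF2, IGF2R, IGFBP3, INSR, IGFBP4 and IGFBP6 kept direction and call, and IRS1 and IGFBP2 were called in none. The largest adjusted p of the called 6 was 0.0309, for IGFBP4. With DESeq2, 3 members and 8 pathway genes were lower, and over all genes 2042 were lower, against 2720 in the main analysis. At a threshold of 0.01, 3503 genes were called, 1739 higher and 1764 lower, with 3 members lower and 17 pathway genes called, 7 of them lower. Leaving out each library gave 3 to 4 members and 8 to 11 pathway genes lower, and 2034 to 2951 lower over all genes. DNM1 ranged from -0.205 to -0.0373 in log2 fold change over these 6 settings, and the difference of the log2 ratio of IRS1 to IRS2 from -0.055 to 0.125, reversing without shControl replicate 3 (-0.0467) and without shDNM1 replicate 1. The count of higher genes within 1000 kb of IGF2 ran from 15 to 17 over the alternatives, an analysis added after the data were seen. Replicate numbers were shared between the sets, but same-numbered libraries deviated together only weakly (r = 0.10, 0.06 and -0.03 across genes). Pairs with different numbers ran from -0.098 to 0.033. Whether same-numbered libraries share more than a number was not tested. With the replicate block, 6080 rather than 5337 genes were called, the members stayed at 3 higher and 5 lower, and DNM1 had an adjusted p of 0.0629. Depth limits IGFBP2 and the low pathway genes most.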

Other observations

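The genes whose log2 CPM over the 6 libraries was most like that of IGF2 were KCNJ14, a potassium channel gene (Pearson r = 0.999, 2.91-fold higher), PHF2, a histone demethylase gene (r = 0.999, 1.61-fold higher), and ARHGAP45 (r = 0.999, 1.54-fold higher). The libraries form 2 labelled sets that differ throughout, and 151 of 16743 genes had r of at least 0.99 with IGF2, so that r is high for many genes that differ between the sets. No p is given for it.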
